A study of Mus musculus with 3 samples.

Results

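The cytosolic ribosomal protein genes are the nuclear genes that encode the protein subunits of the 80S ribosome. Here they were taken as the protein-coding genes with the symbol Rpsa, or with a symbol that starts with Rplp, or with Rpl or Rps and a digit, without the S6 kinases and Rps19bp1. This rule found 91 genes among 55536 annotated genes, of which 22015 were nuclear protein-coding genes. The canonical subunit genes numbered 77, with 46 of the large and 31 of the small subunit, and the other 14 were paralogs and copies annotated as protein-coding. The RNA came from bone-marrow-derived macrophages (BMDM), primary cells grown from the marrow of C57BL/6J mice and exposed to Lipid A, the lipopolysaccharide moiety sensed by Toll-like receptor 4, at 100 ng/ml for 30 min. Total RNA of the cytosolic fraction was sequenced after ribosomal RNA depletion. All 3 libraries belong to this 1 group, and no unstimulated cells or other fraction were analysed here, so every value is a level at a single time. The libraries are labelled as biological replicates with the same donor record, so the SDs describe how these 3 libraries spread, part of which may be technical. The p-values likewise speak of these 3 libraries only. Age and sex were not collected, per the labels.

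Ribosomal proteins are assembled with ribosomal RNA in the nucleolus, and cells need most of them in equal numbers for each subunit. In mammals their messages start with a terminal oligopyrimidine (TOP) tract, a C followed by a run of C and T, through which the kinase mTORC1 and the RNA-binding protein LARP1 set how much of the message is translated. These messages are abundant and stable in most cells, and many of the genes have processed pseudogenes, which are intronless copies of the message elsewhere in the genome.

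The libraries received 23403511, 50435192 and 35785886 counts on annotated genes in replicates 1, 2 and 3. Nuclear protein-coding genes took 22.3%, 34.4% and 24.3% of the TPM (a level per effective transcript length, scaled to all RNAs of a library). TPM of messages therefore stood higher in replicate 2, and differences between libraries are given below in CPM, counts scaled by library size with a TMM factor from edgeR. Macrophage markers were abundant, with all 9 at 10 TPM or more; Lyz2, encoding lysozyme, had 4938, 6120 and 4615 TPM, and Cd68 had 524, 1055 and 647 TPM in replicates 1, 2 and 3. Markers of 6 other cell types were set beside them. Those of stromal cells summed to 240 CPM in replicate 1, against 0.258 and 1.02 CPM in replicates 2 and 3, led by Col1a1 at 8.94, 0 and 0.04 TPM and Col1a2 at 6.59, 0.01 and 0.05 TPM. Of the neutrophil markers 2 of 6 passed 1 TPM, S100a9 with a mean of 17.3 TPM and S100a8 with 10.1 TPM, and the list summed to 7.19, 16.2 and 16.7 CPM. The T and NK cell list (Lck and Nkg7 highest, at means of 0.070 and 0.017 TPM), the B cell list (Cd79b at 0.893 and Cd79a at 0.0267 TPM) and the dendritic cell list (Siglech at 0.257 and Zbtb46 at 0.130 TPM) had no member at 1 TPM. In the erythroid and megakaryocyte list Pf4 had a mean of 208 TPM and the next, Itga2b, 0.117 TPM.

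Where the messages start was read from RefSeq windows of 300 bases (build GRCm38.p6), 250 before to 50 after each annotated start, which were given for 65 of the 91 genes and 57 of the 77 canonical genes. The windows of the highest and lowest genes and of genes named below show where runs of C and T lie near the annotated start. Whether such a run is the tract of a TOP message was not tested. Each line gives 30 bases before and 20 from the annotated start on, 5′ to 3′ on the gene's strand, with coordinates in GRCm38.p6. Capitals mark the longest run that begins with C, holds only C and T, has 5 or more bases and begins within 10 bases of the start.
Rpl41, chr10:128549149-128549198, minus strand: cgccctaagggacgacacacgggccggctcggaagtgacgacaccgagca
Rps24, chr14:24490648-24490697, plus strand: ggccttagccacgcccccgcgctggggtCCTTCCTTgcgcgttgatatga
Rps27, chr3:90213629-90213678, minus strand: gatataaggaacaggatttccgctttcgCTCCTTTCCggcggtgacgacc
Rps12, chr10:23787190-23787239, minus strand: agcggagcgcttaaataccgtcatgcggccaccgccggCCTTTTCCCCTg
Rpl38, chr11:114668550-114668599, plus strand: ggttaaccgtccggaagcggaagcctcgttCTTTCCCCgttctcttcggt
Rplp2, chr7:141447621-141447670, plus strand: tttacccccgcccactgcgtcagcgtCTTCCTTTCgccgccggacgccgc
Rps6, chr4:86857348-86857397, minus strand: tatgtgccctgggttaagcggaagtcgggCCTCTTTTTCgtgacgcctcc
Rpl11, chr4:136053374-136053423, minus strand: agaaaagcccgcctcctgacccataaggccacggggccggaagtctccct
Rpl13a, chr7:45128726-45128775, minus strand: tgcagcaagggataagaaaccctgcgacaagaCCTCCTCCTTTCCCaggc
Rpl37, chr15:5116583-5116632, plus strand: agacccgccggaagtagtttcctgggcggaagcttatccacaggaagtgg
Rps3, chr7:99483690-99483739, minus strand: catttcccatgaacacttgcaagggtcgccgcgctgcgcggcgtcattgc
Rpl5, chr5:107900498-107900547, plus strand: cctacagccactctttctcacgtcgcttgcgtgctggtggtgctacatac
In Rpl38 the run began at the annotated start itself, and in Rps6 and Rps24 1 and 2 bases before it. Rps24 has 2 annotated starts, and the one with the longer run is shown. The longest run among those shown was that of Rpl13a, with 14 bases. Rpl41 and Rpl5, the highest and the lowest canonical gene by TPM, had no such run within 10 bases of the RefSeq start, and neither did Rpl11, Rpl37 and Rps3.

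Over the 57 canonical genes with a window, a run of 5 or more bases was found in 34, or 59.6%, against 44.9% of 69 mitochondrial ribosomal protein genes and 34.4% of all 27025 genes with a window. A run of 8 or more was found in 23, or 40.4%, against 7.25% and 9.43% of the same 2 sets. Of the 12 other known TOP genes with a window, 7 had a run of 5 or more and 4 a run of 8 or more. Short motifs were searched on both strands of the whole window; those of ETS factors and YY1 as spelled here can overlap by 3 letters. CCGGAAG, a core of ETS factor sites, was in 42.1% of canonical genes, 37.7% of mitochondrial ribosomal protein genes and 9.93% of all genes. The form AAGATGGC of the YY1 site was in 8.77%, 17.4% and 3.19%, and the TATA motif TATAAA in 10.5%, 7.25% and 15.7%. These are matches of letters in annotated windows, and no binding was measured.

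Ribosomal protein messages were among the most abundant messages of the cytosol. Their summed TPM was 9.53 ± 1.68% of that of all nuclear protein-coding genes (SD, n = 3 libraries, here and below), at 9.53%, 11.2% and 7.85% in replicates 1, 2 and 3. In reads, which do not correct for the shortness of these messages, they took 2.31 ± 0.43% of the counts of nuclear protein-coding genes. As a share of all gene counts the libraries had 1.92%, 2.51% and 1.61%, and the widest 95% Wilson interval, of replicate 1, ran from 1.918% to 1.930%, which covers counting error only. All 77 canonical genes reached 10 TPM and 73 of them 100 TPM, whereas 421 of 22015 nuclear protein-coding genes, or 1.91%, reached 100 TPM. The median over the 77 genes of log2(TPM + 1) was 7.79, 8.62 and 7.69 in replicates 1, 2 and 3, or 8.03 ± 0.51. Scaled to the TPM of nuclear protein-coding genes it was 9.95 ± 0.21, a smaller spread. Without replicate 2, in which protein-coding genes held the largest part of TPM, the median was 7.74 and the share 8.69%. Without replicate 1, which held the stromal transcripts, they were 8.16 and 9.53%.

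**Figure D1:**
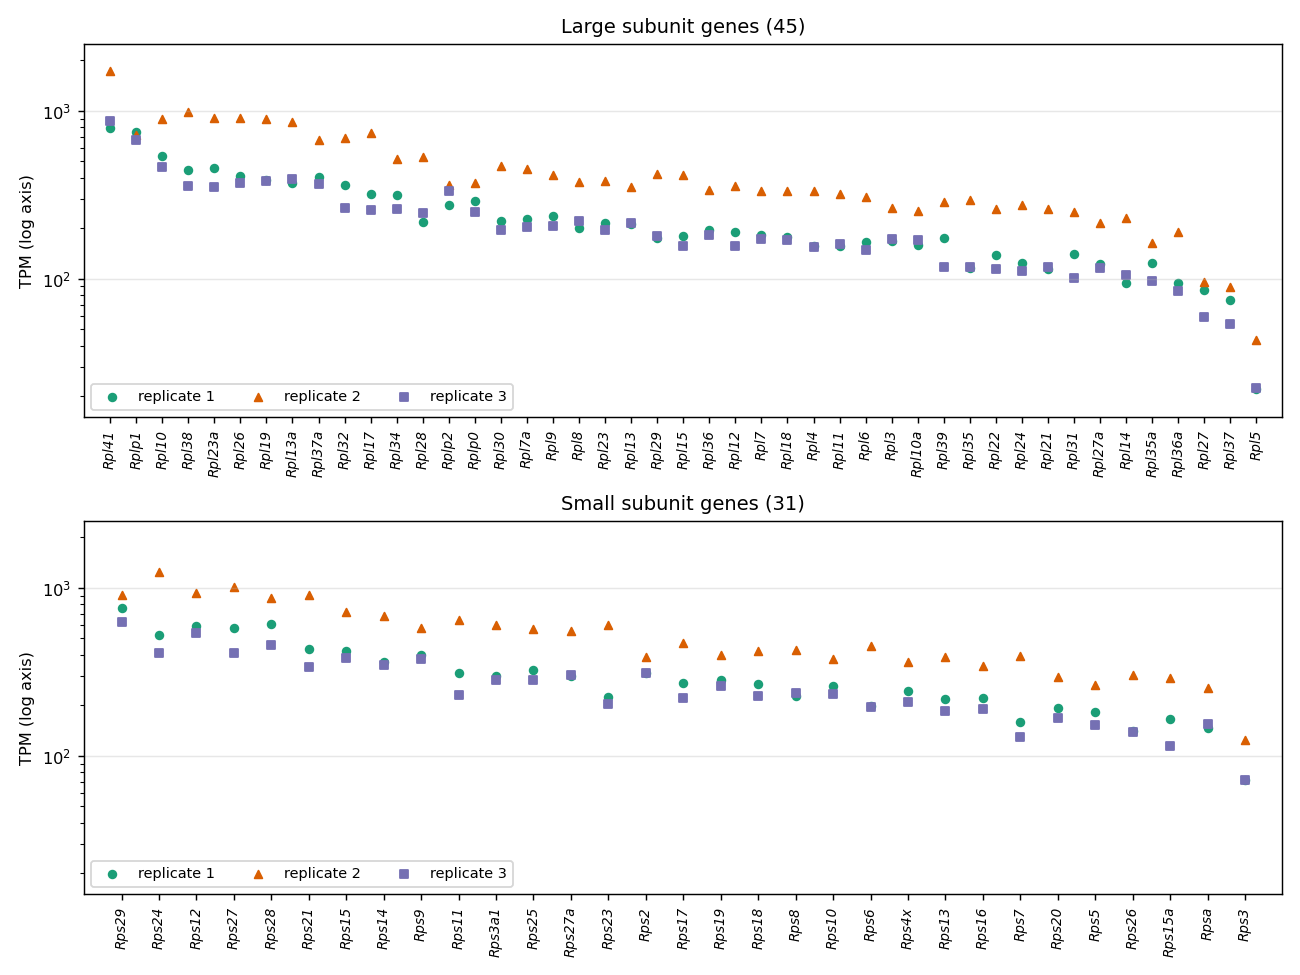
TPM (log axis) of 76 of the 77 canonical ribosomal protein genes in each of the 3 libraries, large subunit above and small subunit below, sorted by mean TPM. Replicate 2 (triangles) lies above the other libraries for nearly all genes on this scale, and the order of genes runs from Rpl41 at 790 to 1731 TPM to Rpl5 at 21.98 to 43.3 TPM.

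The highest member was Rpl41, whose product is a peptide of the large subunit (ENSMUSG00000093674.7, chromosome 10, 128548114 to 128549305 in mm10, minus strand). It had 790, 1731 and 869 TPM in replicates 1, 2 and 3. The small subunit genes Rps29 and Rps24 followed, with 755, 905 and 624 TPM and with 527, 1248 and 409 TPM. Rplp1 encodes an acidic protein of the stalk that recruits translation factors to the large subunit, and had 747, 721 and 667 TPM, the only one of the 10 highest genes that was not highest in replicate 2 in TPM. These genes encode small proteins, and short messages ranked high on the per-length scale. Rps12 had 592, 931 and 538 TPM. Rps27, a zinc-finger protein gene of the small subunit, had 580, 1015 and 410 TPM, and Rps28 608, 874 and 456 TPM. Rpl10, whose product is among the last to join the large subunit, had 537, 888 and 460 TPM. In TPM, replicate 2 was highest for these 4 genes. In CPM, Rps27 and Rpl10 stayed highest there. Rps12, with 398, 388 and 333 CPM, and Rps28, with 205, 180 and 147 CPM, were highest in replicate 1, as were Rps29 and Rplp1. Rpl38 had 444, 983 and 359 TPM and Rpl23a, whose product sits at the exit of the peptide tunnel, 459, 903 and 354 TPM, which completed the 10 highest.

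The lowest canonical member was Rpl5, which binds 5S ribosomal RNA together with Rpl11 (ENSMUSG00000058558.12, chromosome 5, 107900502 to 107909005 in mm10, plus strand). It had 21.98, 43.3 and 22.5 TPM, whereas Rpl11 had 157, 320 and 162 TPM, so that, each gene alone, Rpl5 was lower in each library by more than the spread of either. With near-identical copies added the gap was within the spread, at 162, 280 and 130 TPM for Rpl5 and 166, 356 and 173 TPM for Rpl11. Rpl37 had 74.6, 89.4 and 53.6 TPM and Rpl27 85.2, 96.3 and 59.5 TPM. Rps3, a small subunit gene at the entry of the messenger RNA channel, had 71.4, 124 and 71.9 TPM, and Rpl36a 94.0, 191 and 84.9 TPM. The values of Rpl5, Rpl27 and Rpl36a are tied to those of identical copies, as described below. Rps6, whose protein is phosphorylated downstream of mTORC1, stood near the middle with 197, 453 and 195 TPM. Rpl13a, whose protein is known in human myeloid cells for repressing translation of inflammatory messages after interferon-gamma, had 371, 862 and 390 TPM. The other stalk genes Rplp0 and Rplp2 had 292, 370 and 251 TPM and 276, 363 and 332 TPM, less than Rplp1 in each library.

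The 77 genes spanned 38.6-fold in mean TPM, from 29.3 to 1130 TPM with a median of 286, but those between the first and last quartile lay within 2.17-fold, from 202 to 437 TPM. Across the 77 genes, which are not independent replicates, log2 TPM was lower for longer leading coding transcripts (Pearson r = -0.51, Spearman rho = -0.51). TPM divides by an effective length that shrinks steeply for messages near the fragment size, which the labels give as 250 to 400 nt. For Rpl23a, with a coding transcript of 560 bases, it was 336, 320 and 348 bases in replicates 1, 2 and 3. The length taken off was thus below 250 bases and differed by library. With reads divided by full transcript length instead, a scale added after seeing the data, r was -0.29 and the quartiles lay within 1.73-fold. On that scale Rpl41 was still first and Rpl5 last, while Rps29 was 8th, Rps28 18th and Rps27 24th among the 77. The order of genes was much alike between libraries, with r across genes of 0.94 between replicates 1 and 2, 0.98 between 1 and 3, and 0.94 between 2 and 3.

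Messages of the large subunit stood lower than those of the small subunit in each library. The list medians of log2(TPM + 1) were 7.59, 8.49 and 7.51 for the large and 8.08, 8.83 and 7.87 for the small subunit in replicates 1, 2 and 3. The difference, large minus small, was -0.39 ± 0.09 and negative in 3 of 3 libraries. The exact two-sided sign-flip permutation test gave p = 0.25, the smallest p that 3 libraries allow. With reads per full length it was -0.23 ± 0.09, and with near-identical copies added to each gene, likewise added after seeing the data, -0.27 ± 0.10. Of the large subunit genes 8 of 46 reached 500 TPM, and of the small subunit genes 7 of 31.

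Other genes of translation were set beside them. Fau, which encodes a ribosomal protein fused to a ubiquitin-like protein, stood at the level of the canonical genes with 533, 1176 and 546 TPM. The other 18 known TOP genes had 10 TPM or more each, led by the elongation factor genes Eef1a1, with 1637, 2905 and 1588 TPM, and Eef2, with 260, 422 and 261 TPM, and by Tpt1, which encodes translationally controlled tumour protein, with 1183, 1841 and 934 TPM. Their median lay below that of the canonical ribosomal protein genes, which exceeded it by 1.47 ± 0.09 in log2(TPM + 1) (3 of 3 libraries, exact sign-flip permutation test, two-sided p = 0.25, n = 3). The 78 mitochondrial ribosomal protein genes, which serve the separate ribosome of mitochondria, were far lower: the cytosolic set exceeded them by 4.63 ± 0.16 (3 of 3 libraries, same exact permutation test, p = 0.25). Only 1 of the 78, Mrps21 with 67.2, 171 and 72.2 TPM, reached a mean of 100 TPM, and Mrpl33 and Mrpl52 followed with means of 41.0 and 32.7 TPM. Of 34 ribosome biogenesis genes, whose products act on the way from nucleolus to cytosol, 10 had 10 TPM or more and none 100. The highest were Ncl, encoding nucleolin, with a mean of 50.3 TPM, Sbds with 21.6 and Ubtf, a factor for RNA polymerase I, with 16.7 TPM. Of 18 genes listed for mTORC1 and TOP message control, 8 had 10 TPM or more. The highest was the kinase gene Rps6ka3 at 22.9 TPM, which encodes no part of mTORC1. The translation repressor gene Eif4ebp2 followed at 21.3 TPM and the cap-binding protein gene Eif4e at 19.7 TPM. The S6 kinase genes Rps6kb1 and Rps6kb2 had 4.62 and 5.79 TPM.

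**Figure D2:**
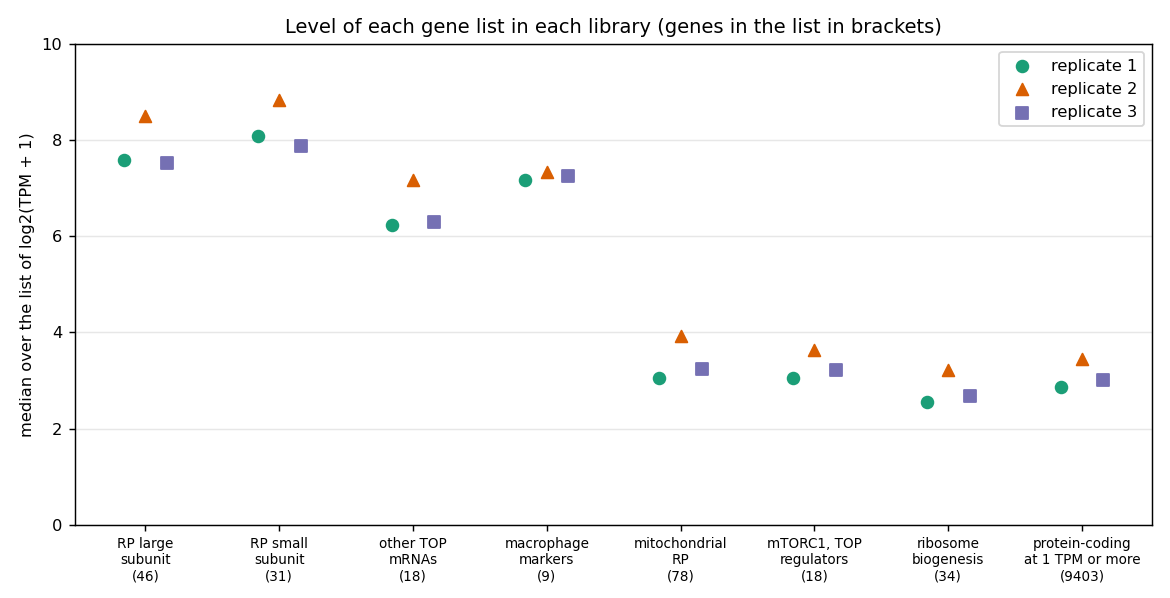
Median over each gene list of log2(TPM + 1) in each of the 3 libraries, with the number of genes in brackets. Both ribosomal protein lists lie between 7.51 and 8.83, above the other TOP messages (6.23 to 7.17) and the mitochondrial ribosomal protein genes (3.04 to 3.93).

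The 14 further members fell into 3 groups. Expressed paralogs with their own sequence included Rpl36al, a paralog of Rpl36a, with 82.0, 245 and 85.6 TPM, and Rps27l, a p53-inducible paralog of Rps27, with 51.8, 129 and 49.6 TPM. Both were highest in replicate 2, by more than the spread between the other libraries. Rpl22l1, a paralog of Rpl22, had 31.2, 31.1 and 20.3 TPM and Rpl7l1, which is related to Rpl7, 15.9, 31.4 and 15.9 TPM. Rpl22 itself had a mean of 171 and Rpl7 of 229 TPM. A second group were copies whose coding sequence equals or nearly equals that of a canonical gene: Rpl10-ps3 with 20.5, 54.4 and 19.1 TPM, Rps12-ps3 with 11.0, 21.2 and 9.24 TPM, Rpl9-ps6 with 3.90, 9.24 and 2.50 TPM, Rps27rt with 4.75, 6.85 and 2.72 TPM and Rpl36a-ps1 with a mean of 0.573 TPM. The third group were at or near 0: Rpl39l, a testis paralog, had a mean of 0.197 TPM, Rpl9-ps1 0.030 TPM and Rpl3l, the muscle form of Rpl3, 0.023 TPM. Rpl10l and Rpl36-ps4 were listed at 0 in each library. On library totals, a count of 0 allows up to 0.128, 0.0595 and 0.0838 CPM in replicates 1, 2 and 3.

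Near-identical copies elsewhere in the genome bear on single-gene values of this family. With copies defined by at least 95% identity over at least 80% of the coding sequence, 74 of the 77 canonical genes had 1 or more, and the members had 578 in all, of which 549 are annotated as processed pseudogenes. Few of them held reads: 93 copies had a mean count of 10 or more, 21 reached 10 TPM and 7 reached 100 TPM. Together they took 4.31%, 4.79% and 3.99% of the reads of members and copies. Whether those reads came from the copies or from the genes was not tested. The 2 genes at the ends of the range show coding letters that a gene and its copy have in common. Bases outside the coding sequence were not compared. The coding sequence of Rpl41, shown whole without its stop codon, was the same letter for letter in its copy Gm10076 on chromosome 14, and so are the first 90 of 891 coding bases of Rpl5 shown beside it and all the others in its copy Gm15500, at chr7:114705217-114706235.
Rpl41, gene at chr10:128548114-128549305, minus strand: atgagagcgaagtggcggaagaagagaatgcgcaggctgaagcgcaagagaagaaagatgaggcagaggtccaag
Gm10076, gene at chr14:105681828-105682211, plus strand: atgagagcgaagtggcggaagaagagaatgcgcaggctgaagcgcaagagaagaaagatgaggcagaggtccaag
Rpl5, gene at chr5:107900502-107909005, plus strand: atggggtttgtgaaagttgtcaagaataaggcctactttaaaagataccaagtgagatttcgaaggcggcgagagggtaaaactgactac
The coordinates are those of the whole genes in GRCm38, and sequences are from the GENCODE M21 transcripts.

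Gm15500 had 140, 237 and 107 TPM, more than Rpl5 in each library. With its copies added, Rpl5 ranked 70th of 77, where alone it ranked 77th. Gm10076 had 365, 528 and 302 TPM in the gene table, but 0.571, 0.868 and 0.210 TPM in the deposited second transcript table, an estimate made in another way. Rpl41 was highest with or without its copies, with a mean of 1130 TPM alone and 1528 TPM with them. The copies of Rpl41 took 19.5% of the reads of the gene and its copies. Gm10443, a copy of Rps28, had a mean of 142 TPM, though the copies of Rps28 took 3.43% of the reads of the gene and its copies. With copies added, the 77 genes spanned 19.4-fold, from 78.8 to 1528 TPM, and the lowest were Rpl37 and Rps3.

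Same-named pseudogenes took the largest share of reads from Rpl27, at 34.1% of the reads of the gene and its pseudogenes, then from Rpl36a at 24.2%, Rpl31 at 23.7%, Rps23 at 12.5% and Rps16 at 9.13%. Rpl27 had 85.2, 96.3 and 59.5 TPM alone and 198, 374 and 171 TPM with all near-identical copies, of which Rpl27-ps3 and Gm11518 had a mean of 83.3 TPM each. Rpl31 had 141, 251 and 101 TPM alone and 281, 624 and 211 TPM with copies, led by Rpl31-ps8. Rpl36a had 131, 414 and 114 TPM with copies. Across the 77 genes, r between log2 TPM and the number of copies was -0.0024. Rpl21, the gene with the most copies at 57, had a mean of 165 TPM. Rpl35 had 115, 296 and 118 TPM alone and 304, 763 and 257 TPM with copies, mostly through Gm2000, and ranked 22nd with copies and 65th alone.

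**Figure D3:**
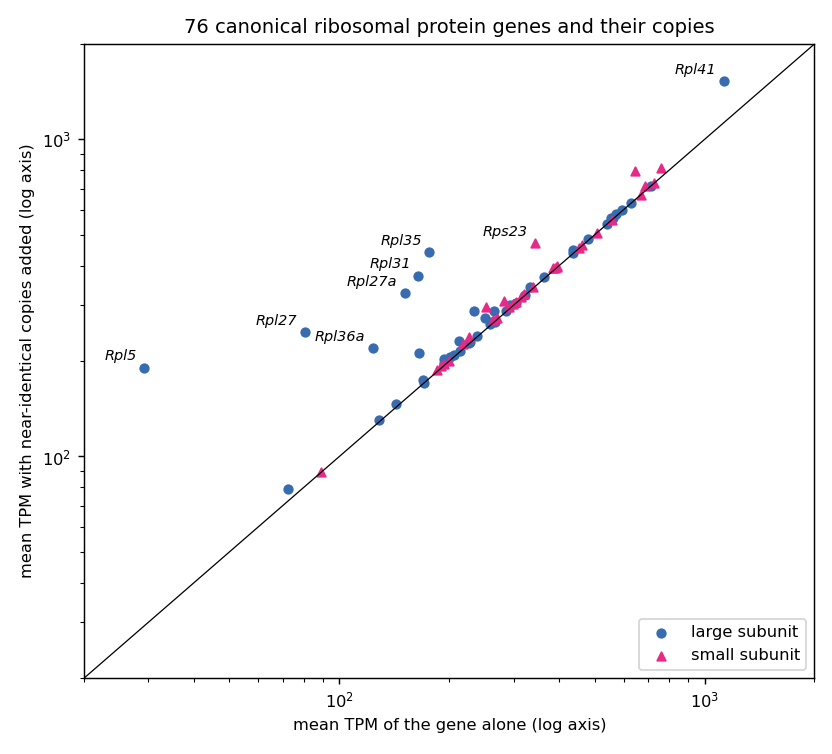
Mean TPM over 3 libraries of 76 of the 77 canonical genes alone (x) and with its near-identical copies added (y), both on log axes; the line marks equal values. Most genes lie on the line, and the named genes lie over 1.3-fold above it, with Rpl5 at 29.3 TPM alone and 191 TPM with copies the farthest.

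The authors' 2 estimates divided reads differently between some members with the same or nearly the same coding sequence, and differed for other members too. In the gene table Rps12 had 592, 931 and 538 TPM, but in the other estimate, the second transcript table, it had 6.54, 36.3 and 2.76 TPM, while Rps12-ps3 had 11.0, 21.2 and 9.24 TPM in the gene table and 262, 621 and 140 TPM in the second. The coding sequences of the pair are 100% identical. Rpl10 had 24.0, 58.1 and 12.8 TPM in the second table and Rpl10-ps3 193, 518 and 99.8 TPM, again the reverse of their order in the gene table. Rpl12 had 189, 356 and 157 TPM in the gene table and 1.37, 4.31 and 1.39 TPM in the second. Its 6 near-identical copies are not members, and where its reads went in the second was not tested. Rpl9-ps6 was listed at 0 in the second table. Apart from Rpl10, these were the 5 members that differed most between the tables, on the scale of nuclear protein-coding TPM. The summed share of the family was 9.00 ± 1.67% in the second table.

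Transcript models add a further layer. Of the TPM of the 77 genes, 92.4 ± 0.84% fell on protein-coding models, 3.996% on models with a retained intron, 2.59% on models marked for nonsense-mediated decay and 1.00% on others, over 473 transcripts. The leading transcript held 97.4% of the gene's TPM in the median gene, and 90% or more in 46 of 77. For 7 genes it was not a protein-coding model. In Rps20 the retained-intron model Rps20-201, of 582 bases, held 91.6%, 93.9% and 90.7% of the gene's TPM, and the protein-coding model Rps20-203, of 3706 bases, held 7.43% on average. Rps20-201 covers all 357 coding bases of Rps20-203 and holds 192 bases outside its exons. In Rps16 the retained-intron model Rps16-203, of 518 bases, held 72.1%, 86.2% and 73.2%, against 12.5% on average for the coding model Rps16-201, of 1109 bases. Whether the intron bases themselves were read cannot be seen in transcript totals.

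The highest shares of TPM off the leading transcript were those of Rpl13a at 65.9%, Rpl15 at 55.6% and Rps10 at 51.02%, followed by Rpl9-ps1, which is near 0. Rpl13a has the retained-intron model Rpl13a-213 at 95.7, 345 and 114 TPM and the coding model Rpl13a-201 at 133, 199 and 134 TPM, so that the order of the 2 was turned round in replicate 2 alone. In Rpl15 the retained-intron model Rpl15-206 had 43.1%, 48.8% and 34.6% of the gene's TPM and the coding model Rpl15-203 42.6%, 41.3% and 49.4%. Rps10 was divided between protein-coding models, with 49.0% on Rps10-201 and 38.8% on Rps10-208. Rpsa-206, marked for decay, held 54.0% of Rpsa, and the processed transcript Rps23-203 held 57.8% of Rps23. In Rps26, the retained-intron model Rps26-202 held 60.1% in replicate 2, against 28.5% and 34.5% in replicates 1 and 3. The small nucleolar RNA genes inside members, 58 in 30 host genes on the same strand, had few reads: 5 had any in the gene table, where all 58 summed to 45.75 counts over the 3 libraries, while 30 had any in the second transcript table, where the sum was 182 counts. At 65 to 203 bases they are shorter than the selected fragments.

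**Figure D4:**
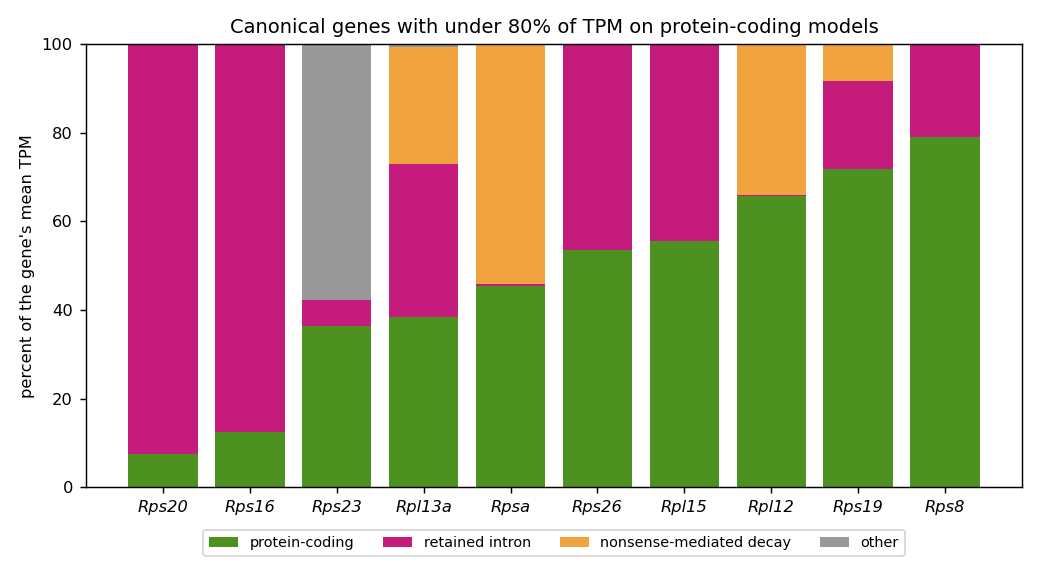
Percent of the gene's mean TPM (3 libraries) on protein-coding, retained-intron, nonsense-mediated decay and other transcript models, for 10 canonical genes with under 80% on protein-coding models. Rps20 and Rps16 have 92.6% and 87.5% on retained-intron models, and Rps23 57.8% on a processed transcript.

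The levels of ribosomal protein messages varied between libraries. Of 85 members with a mean count of 10 or more, 84 spread more between libraries than Poisson counting allows (chi-square index of dispersion, Benjamini-Hochberg adjusted p under 0.05 over all genes tested), where 66.8% of 13237 genes passed; the exception was Rps27rt (adjusted p = 0.069). The test passes more genes at high counts. Among 5163 genes whose mean count reached 1000, which include all 77 canonical genes, 86.0% passed, and all 77 did; at a mean count of 5000 or more, 96.1% of genes passed, and all 68 canonical genes there did. At these depths most genes pass, so the members' count is no result about them. The tagwise biological coefficient of variation (BCV) from edgeR had a median of 15.3% over the canonical genes. Over all genes tested, with mean counts from 10 up, it was 17.3%. Over protein-coding genes at 1 TPM or more it was 14.0%, below that of the canonical genes. The highest library exceeded the lowest by 1.43-fold in CPM for the median canonical gene and by 1.27-fold for the median of all genes tested.

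The direction was shared. Of the 77 genes, 59 had their highest CPM in replicate 2, or 76.6%, where 39.0% of all genes tested did, and 71 had their lowest in replicate 3, or 92.2%, where 31.4% did. Relative to each gene's own mean, the log2 CPM of the median canonical gene was 0.02 higher in replicate 1 and 0.23 higher in replicate 2, and in replicate 3 it differed by -0.26, and the median of all genes tested lay within 0.01 of 0 in each. Without replicate 3 the median in replicate 2 was 0.12, and without replicate 1 it was 0.24. Summed CPM of all 91 members was 19982, 23247 and 16750 in replicates 1, 2 and 3. On library totals alone the median of all genes moved to 0.12 in replicate 2, and the canonical genes lay 0.23 above it. Other lists stood in replicate 2 as follows: the other TOP genes had a median of 0.24 with 16 of 18 highest there, the mitochondrial ribosomal protein genes 0.19 with 65 of 78, and the ribosome biogenesis genes 0.08 with 19 of 34. The macrophage markers had -0.15, with 1 of 9 highest there. In replicate 3 the other TOP genes had a median of -0.19, with 14 of 18 lowest there. The mitochondrial ribosomal protein genes had -0.08 with 26 of 78 lowest, the ribosome biogenesis genes 0.02 with 5 of 34, and the macrophage markers 0.11 with 0 of 9. Replicate 2 was also the deepest library and the one with the highest protein-coding share, and the part of these in the shared direction was not tested. With 1 group, a replicate cannot be told apart from its culture, its fractionation or its library. In bulk RNA, a lower share of a message in a library and fewer cells that hold it cannot be told apart either.

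**Figure D5:**
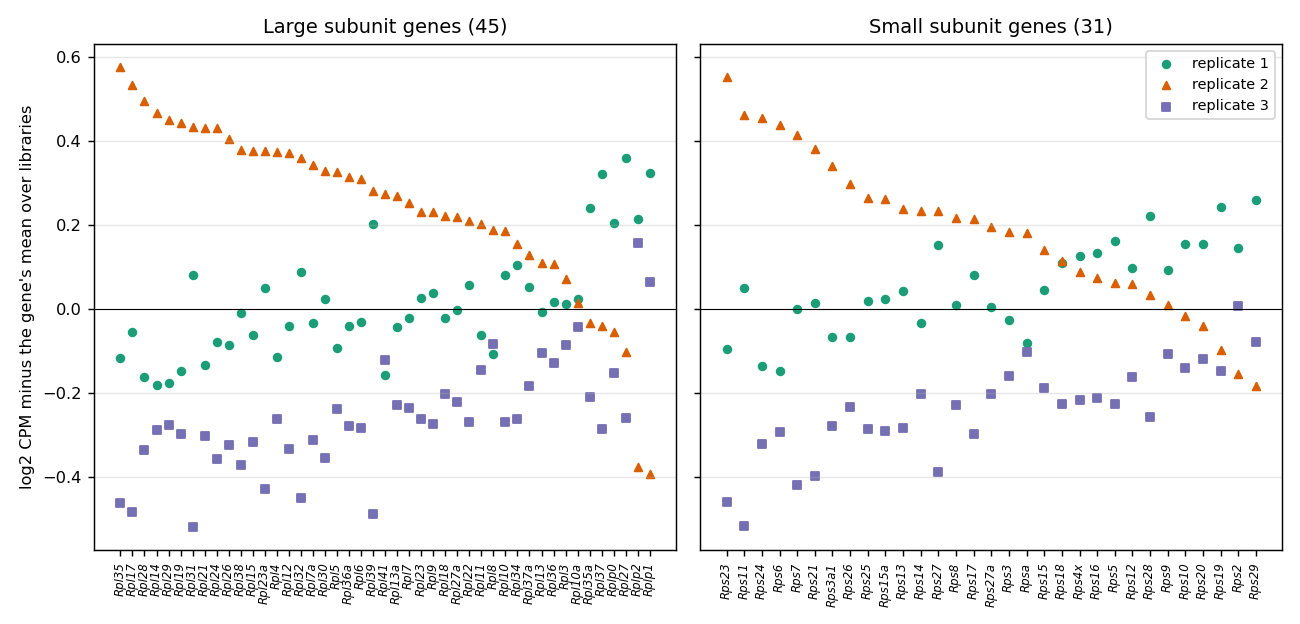
Log2 CPM (TMM-scaled) of 76 of the 77 canonical genes minus each gene's mean over the 3 libraries, sorted by the value in replicate 2 within each subunit. Over all 77 genes, replicate 2 (triangles) is highest for 59 and replicate 3 (squares) lowest for 71, while Rplp1, Rplp2, Rps29 and Rps2 stand at the low end in replicate 2.

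Of the 77 genes, 4 had their lowest CPM in replicate 2, the stalk genes Rplp1 and Rplp2 and the small subunit genes Rps29 and Rps2. Rplp1 had 425, 259 and 355 CPM in replicates 1, 2 and 3 and Rplp2 205, 136 and 197 CPM. Rps29 had 263, 193 and 208 CPM and Rps2 501, 407 and 456 CPM. Rplp0, the scaffold of the stalk, had 682, 570 and 533 CPM, highest in replicate 1. The large subunit genes were highest in replicate 2 in 39 of 46 cases and the small subunit genes in 20 of 31; the difference between these shares was not tested. Across the 77 genes the deviation in replicate 2 went weakly with the GC content of the coding transcript (r = -0.26). With the length of that transcript r was 0.08. Over 3961 protein-coding genes at 10 TPM or more, r between this deviation and gene length was -0.29 (Spearman rho = -0.30). All points come from the same 3 libraries, and the part of length in the shared direction was not tested.

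The 5 members with the highest dispersion at a mean count of 100 or more were Rpl9-ps6 with a BCV of 38.6%, Rpl10-ps3 with 25.9%, Rpl36al with 25.7%, Rps12-ps3 with 25.6% and Rpl35 with 24.9%. The coding sequences of Rpl9-ps6, Rpl10-ps3 and Rps12-ps3 equal or nearly equal that of a canonical gene, and that of Rpl35 nearly equals Gm2000; the part of shared reads in their spread was not tested. Rpl36al had 51.9, 98.1 and 50.3 CPM and Rpl35 164, 264 and 129 CPM, both highest in replicate 2 by over 1.5-fold. The 3 members with the lowest dispersion were Rpl10a with a BCV of 10.7% and 181, 180 and 173 CPM, Rpl7l1 with 11.5% and Rpl36 with 11.6%. Rpl10a still passed the between-library test (edgeR TMM factors, Benjamini-Hochberg adjusted p = 0.038), but not without replicate 2 (adjusted p = 0.062) or without replicate 3 (adjusted p = 0.704).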

How the data were processed

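Total RNA from the cytosol, depleted of ribosomal RNA, was sequenced in 3 libraries of 1 group, each made from 1 µg of RNA, per the labels. The authors deposited gene and transcript tables on mm10 with GENCODE M21, per the deposited readme files. Which aligner and quantifiers were run, in which versions, and whether strand was used are not given in the sources read. The deposited expected counts are estimated reads, in which the authors divided multi-mapping reads among genes. In the deposited TPM values, counts are taken per effective length and brought to one total over all RNAs. The deposited percent column gives a transcript's share of its gene, and transcript shares were recomputed from the transcript TPM. The deposited second transcript table gives estimated counts and TPM made in another way, summed here per gene. Overlapping and antisense genes may share reads.

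Of 81881 gene rows, 55536 matched the annotation; the other 26345 (tRNA and spike-in rows) were left out. Expected counts were rounded to whole numbers. edgeR 4.0.16 gave TMM factors and dispersions, and DESeq2 1.42.0 alternative size factors. Between-library differences of 13237 genes (mean count at least 10) were tested by chi-square against Poisson counting, at an adjusted p of 0.05. Deviations used log2 CPM with a prior count of 0.5. The chi-square test was also run on simulated Poisson counts. These hold no reads divided among near-identical genes, so that run cannot show how the test performs on such reads. Copies were found with blastn 2.17.0. Reads have no molecular identifiers, so intervals and limits cover counting error only.

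The members, lists and tests were chosen with earlier results of these data known. Named genes are the 10 highest and 5 lowest canonical members by mean TPM, the 3 highest per subunit, all members outside the canonical list, the 5 with the highest and 3 with the lowest dispersion, and the 5 each that differ most between tables, that hold the most TPM off the leading transcript and that share the most reads with same-named pseudogenes. To these come the highest members of each other list, and the stalk genes, Rpl5, Rpl11, Rps6, Rpl41 and Rpl13a. Other genes were chosen after their values were seen. A few genes that these rules name are not reported here. Promoter windows are from RefSeq (GRCm38.p6), with none shown from chromosome 18.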

Additional observations from a re-analysis of the deposited data

How the results depend on the processing

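No result reversed its sign under any alternative run. The median level of the canonical genes, 8.03 in log2(TPM + 1), was 6.55 in the second transcript table, 9.95 scaled to nuclear protein-coding genes and 9.70 with reads per full gene length on that scale; the cause was not tested for the second table or for full length, and the scale to protein-coding genes has a smaller total by construction. Leaving out each library in turn gave 7.74 to 8.21. The share of nuclear protein-coding TPM was 2.31% when counts, which are not taken per length, replaced TPM. It was 8.69% to 10.4% with a library left out. Leaving out a library gave -0.43 to -0.35 for large minus small subunit, 4.57 to 4.72 for the gap to mitochondrial ribosomal protein genes, 1.42 to 1.51 for the gap to other TOP genes and 0.12 to 0.24 for the deviation in replicate 2. Without replicates 1, 2 and 3 in turn, 82 of 87, 75 of 85 and 79 of 85 members passed the between-library test. Of all genes tested, not matched for depth, 55.3%, 33.1% and 51.2% passed in these runs. The test was lost by 2 members without replicate 1 (Rps19, Rpl22l1), by 9 without replicate 2 (Rplp2, Rpsa, Rpl41, Rpl8, Rpl10a, Rpl36al, Rpl7l1, Rps27l, Rps12-ps3) and by 5 without replicate 3 (Rpl34, Rpl36, Rpl10a, Rps18, Rps12-ps3). Over the other alternatives (pseudocount, filters, scalings, DESeq2 size factors, second table and, added after seeing the data, full length and added copies), large minus small subunit ranged from -0.40 to -0.23. In these runs 83 or 84 of 83 to 89 members tested passed the test, where 45.7% to 74.7% of all genes tested did. No paired analysis was possible because there is 1 group. Depth limits members with low counts, such as Rps27rt in the between-library test, and those near 0.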
